A study of Mus musculus with 6 samples.

Results

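The inhibin, activin, anti-Müllerian hormone (AMH) and follistatin genes were followed in isolated mouse Sertoli cells that lack the nuclear cofactor PA1. The group holds 10 genes chosen by name, *Inha*, *Inhba*, *Inhbb*, *Amh*, *Amhr2*, *Fst*, *Fstl1*, *Fstl3*, *Acvr2a* and *Acvr2b*, of 28262 genes listed for the series, and all 10 passed the filter on low counts. RNA-seq libraries came from C57BL/6 mice at 20 days of age, 3 from Pa1F/F cells, whose *Pa1* alleles carry loxP sites but are intact, and 3 from Amh-pa1-/- cells, in which, by their labels, the same floxed alleles are deleted by a Cre recombinase under the *Amh* promoter, which is active in Sertoli cells. Cells of both genotypes were untreated and were cultured after they had been purified from the testes. The labels do not say whether replicates came from separate animals or cultures, so that p-values measure the spread between these libraries, and the reads of *Pa1* were not analysed here.

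Inhibins and activins are dimers built from shared subunits. An α subunit (*Inha*) joined to a βA (*Inhba*) or βB (*Inhbb*) subunit makes inhibin, the Sertoli cell hormone that lowers FSH release from the pituitary, while β subunits joined to each other make activins, which signal through type II receptors (*Acvr2a*, *Acvr2b*) and SMAD proteins and have the opposite effect on FSH. Follistatin (*Fst*) and the follistatin-like protein FSTL3 bind and block activins. AMH, which is made by Sertoli cells and causes the Müllerian ducts to regress in the fetus, signals through its own type II receptor (*Amhr2*) and declines as Sertoli cells mature.

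Total counts per library lay between 13203757 and 16231443. Markers of Sertoli cells were abundant, with summed levels of 17658 to 18159 CPM (counts scaled to the size of the library) in Pa1F/F and 11455 to 14754 CPM in Amh-pa1-/- libraries over a list of 14 genes, of which 12 were tested, 3 were lower and 2 were higher. Without Amh-pa1-/- replicate 3, 5 of the 12 were lower and 4 were higher, and the calls of *Clu* and *Aard* as lower were each lost in 4 of the 6 fits without 1 library. Over all tested genes, 35.3% were called at an adjusted p-value under 0.05 in either direction, and 43.1% without Amh-pa1-/- replicate 3. These shares are the background for each marker list here and below. *Clu* made up 73.2% of these counts in Pa1F/F cells, and the other 13 genes, *Amh* among them, summed to 4633 to 4962 CPM in Pa1F/F and 4354 to 4542 CPM in Amh-pa1-/- libraries. The germ cell markers *Ddx4* and *Dazl* summed to between 0.721 and 3.57 CPM in any library. Amh-pa1-/- replicate 3 stood apart from replicates 1 and 2, with an SD of the log2 CPM difference over genes of 0.562 and 0.566 against 0.285 between replicates 1 and 2. Among Pa1F/F libraries, replicate 2 stood apart in the same way (0.469 and 0.473, against 0.267 between replicates 1 and 3). Each result below that rests on one of these libraries is given with and without it.

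At an adjusted p-value under 0.05 (edgeR's quasi-likelihood test, Benjamini-Hochberg over 14919 tested genes), *Inha* and *Inhbb* fell and *Acvr2a* rose in Amh-pa1-/- cells, and the other 7 genes did not pass. This is 3 of 10 genes, as compared with 35.3% of all tested genes, so that the share of the group that passed was not above the background. With a log2 fold change of at least 1 required as well, *Inha* and *Inhbb* were differentially expressed (2 of 10), as compared with 12% of all tested genes in either direction, 6.56% in the lower and 5.44% in the higher direction. The median log2 fold change was -0.28 over the 10 genes and 0.00 over all tested genes. Without Amh-pa1-/- replicate 3, 7 of the 10 genes passed, 6 of them lower, as compared with 43.1% of all genes tested in that fit and 21.2% in the lower direction. In that fit *Inha*, *Inhbb*, *Amh* and *Fst* were also past a log2 fold change of 1, all lower, as compared with 13.5% of genes in either direction and 7.92% in the lower direction.

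**Figure D1:**
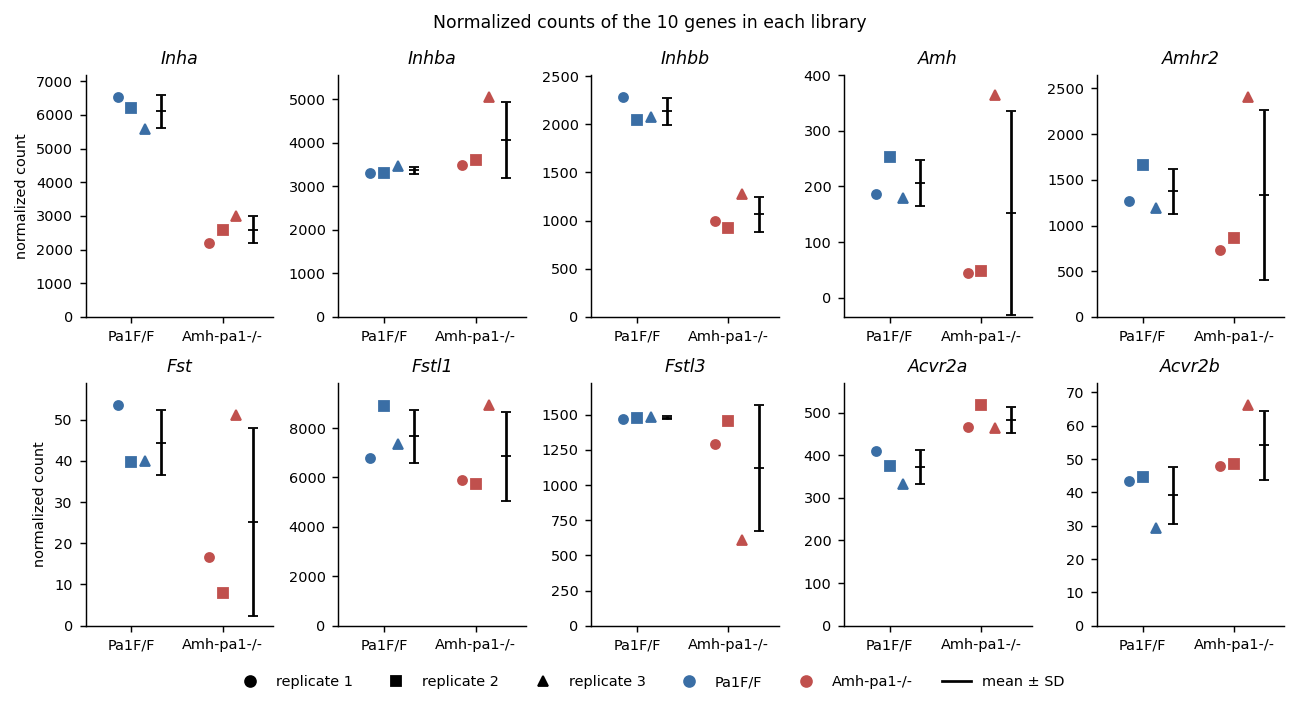
Normalized counts of each gene (linear axis) in the 3 Pa1F/F and 3 Amh-pa1-/- libraries, with a marker per replicate and the mean ± SD of each genotype beside them. The groups do not overlap for *Inha*, *Inhba*, *Inhbb*, *Fstl3*, *Acvr2a* and *Acvr2b*. For *Amh*, *Amhr2* and *Fstl1*, Amh-pa1-/- replicate 3 lies above every Pa1F/F library while replicates 1 and 2 lie below.

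*Inha* (ENSMUSG00000032968, chromosome 1 of GRCm38 from 75507077 to 75510366) encodes the α subunit that is common to both inhibins. Its normalized counts, which are counts scaled to a common library size, were 6542, 6199 and 5570.2 in the Pa1F/F libraries, against 2206, 2579.8 and 2998 in those of Amh-pa1-/- cells, here and below in the order of replicates 1, 2 and 3. Every knockout library lay below every control library. The mean fell from 6104 ± 493 to 2595 ± 396 (SD, n = 3 each), a 2.35-fold decrease, which is -1.23 as a log2 fold change (standard error, SE, 0.12, edgeR, adjusted p = 0.000705). The lowest and highest values with 1 library left out were -1.35 and -1.13, and each of these fits called the gene.

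*Inhbb* (ENSMUSG00000037035, chromosome 1, from 119415465 to 119422248) encodes the βB subunit, the partner of the α subunit in inhibin B. Its normalized counts were 2287, 2039 and 2070.3 in the Pa1F/F libraries, against 999, 920.4 and 1273 in those of Amh-pa1-/- cells. Here too the groups did not overlap, which held for 6 of the 10 genes as compared with 52.4% of all tested genes. The mean fell from 2132 ± 135 to 1064 ± 185 (SD, n = 3 each), which is -1.003 as a log2 fold change (SE 0.12, edgeR, adjusted p = 0.00162). *Inhbb* stood on the fold threshold itself. Leaving out Pa1F/F replicate 1, Amh-pa1-/- replicate 1 or Amh-pa1-/- replicate 2 gave -0.95, -0.96 and -0.89, short of 1, while its adjusted p-value stayed under 0.05 in every fit without 1 library (highest 0.0111).

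*Inhba* (ENSMUSG00000041324, chromosome 13, from 16011851 to 16031621), which encodes the βA subunit, was not lower in the knockout libraries. Its normalized counts were 3309, 3308 and 3465 in the Pa1F/F libraries, against 3489, 3609 and 5057 in those of Amh-pa1-/- cells. The knockout libraries lay just above the controls, with replicate 3 well above replicates 1 and 2, and the log2 fold change was 0.27 (SE 0.14, edgeR, adjusted p = 0.182). Without Amh-pa1-/- replicate 3 it was 0.08 (edgeR, adjusted p = 0.163).

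Since the subunits pair with each other, the balance of their transcripts was compared within each library, where scaling between libraries cancels. The count ratio of *Inha* to *Inhba* was 1.98, 1.87 and 1.61 in the Pa1F/F libraries, against 0.632, 0.715 and 0.593 in those of Amh-pa1-/- cells. Reads of *Inha* thus outnumbered those of *Inhba* in every control library and were outnumbered by them in every knockout library, although counts of different genes also depend on transcript length. The log2 ratio was 0.86 ± 0.15 in control and -0.63 ± 0.14 in knockout cells (SD, n = 3 each), a difference of -1.49 or 2.81-fold that is larger than the spread between replicates (exact two-sided permutation test, p = 0.1, the smallest that 3 against 3 allows, adjusted p = 0.15 over 3 ratios).

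The ratio of *Inhbb* to *Inhba*, the choice between the β subunits, was -0.66 ± 0.11 and -1.92 ± 0.10 on the log2 scale, a difference of -1.26 with groups that did not overlap (SD, n = 3 each, exact permutation test, p = 0.1, adjusted p = 0.15). Per kb of transcript, where the genes can be compared, *Inhbb* stood at 0.967, 0.862 and 0.836 of the level of *Inhba* in the Pa1F/F libraries, against 0.400, 0.357 and 0.352 in those of Amh-pa1-/- cells. These ratios rest on 1 transcript length per gene. The transcript used for *Inhba* spans 17224 bases and the counted gene 19771, so that the counted length may differ, which would move all 6 ratios by the same factor and leave the difference between genotypes as it is. The ratio of *Inha* to *Inhbb* differed by -0.23 (log2) between the genotypes, with overlapping groups (exact permutation test, p = 0.2, adjusted p = 0.2). In these ratios Amh-pa1-/- replicate 3 did not stand apart from replicates 1 and 2. Without it the difference was -1.43 for *Inha* to *Inhba* and -1.23 for *Inhbb* to *Inhba*.

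**Figure D2:**
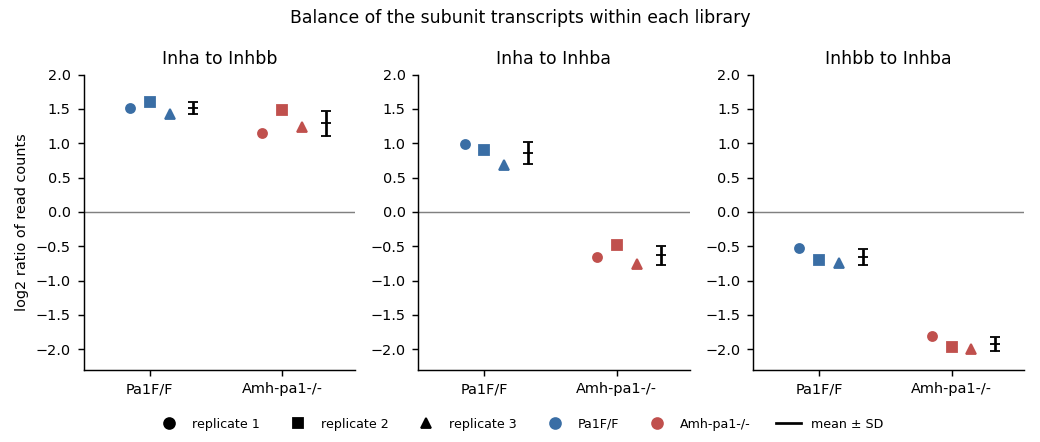
Log2 ratio of the read counts of pairs of subunit genes within each library, with a marker per replicate and the mean ± SD per genotype. The ratio to *Inhba* of both *Inha* and *Inhbb* lies lower in all 3 Amh-pa1-/- libraries than in any Pa1F/F library, and the ratio of *Inha* to *Inhbb* overlaps.

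The 250 bases before the RefSeq start of both β subunit genes (GRCm38.p6, from RefSeq) are shown because these genes share a role and only *Inhbb* passed the test. Those of *Amhr2*, which held the most motif matches of the windows searched, are shown as well. Capitals mark matches on either strand. The motifs searched were TGANTCA for AP-1, TGACGTCA for the cAMP response element (CRE), its shorter core TGACG, which is part of the CRE, AAGGTCA for SF-1, AACAAT for SOX proteins and CAGACA for SMADs. For GATA factors AGATAA was searched, and also TGATAA. Only windows that end at the start of the gene in the counted annotation, within 10 bases, were used, which left 5 of the 10 genes.
Inhbb, chr1:119422249-119422498, minus strand: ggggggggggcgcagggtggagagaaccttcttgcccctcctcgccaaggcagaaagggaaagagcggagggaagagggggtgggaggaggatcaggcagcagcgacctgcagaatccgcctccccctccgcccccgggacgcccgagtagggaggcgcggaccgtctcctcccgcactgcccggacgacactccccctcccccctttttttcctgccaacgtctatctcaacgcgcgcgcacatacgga
Inhba, chr13:16011601-16011850, plus strand: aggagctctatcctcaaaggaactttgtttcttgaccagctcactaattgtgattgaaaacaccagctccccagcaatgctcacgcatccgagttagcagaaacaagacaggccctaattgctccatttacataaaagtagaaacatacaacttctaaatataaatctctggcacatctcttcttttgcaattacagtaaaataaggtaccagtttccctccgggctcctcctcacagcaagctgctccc
Amhr2, chr15:102445117-102445366, plus strand: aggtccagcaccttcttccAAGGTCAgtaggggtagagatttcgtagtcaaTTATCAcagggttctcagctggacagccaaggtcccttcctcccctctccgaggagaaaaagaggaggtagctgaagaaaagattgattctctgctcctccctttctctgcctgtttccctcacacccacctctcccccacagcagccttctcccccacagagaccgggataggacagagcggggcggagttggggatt
The *Inhbb* window is rich in G and C (68.0%) and that of *Inhba* is not (43.2%). Neither holds a match to these letters. The *Amhr2* window holds the SF-1 letters, which begin 231 bases before the start and occur in 4.08% of 32851 promoter windows of the same length, and the TGATAA letters on the minus strand, 199 bases before the start and in 7.94% of windows. The SMAD letters, in 17.1% of windows, occur in the *Fstl3* window, and the *Acvr2a* window holds none of these motifs. A match is a run of letters and not a measured binding site.

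*Amh* (ENSMUSG00000035262, chromosome 10, from 80805243 to 80807648) is the gene whose promoter drives the Cre recombinase. Its normalized counts were 186, 254 and 179 in Pa1F/F replicates 1, 2 and 3. The first and second Amh-pa1-/- libraries had 43.9 and 48.4, below every control library, whereas the third had 365, above every control library. Replicate 3 was 7.90 times the mean of the other two Amh-pa1-/- replicates, a ratio that only 0.241% of tested genes reached. The 3 knockout libraries gave 152 ± 184 against 206 ± 41.2 in control cells (SD, n = 3 each), and the log2 fold change was -0.43 (SE 0.77, edgeR, adjusted p = 0.698). Without Amh-pa1-/- replicate 3 it was -2.16 (edgeR, adjusted p = 0.000291), and without Amh-pa1-/- replicate 1 or 2 it was 0.01 or 0.00. With all libraries it was -1.12 by limma-voom, where it did not pass either. Whether *Amh* was lower in knockout cells therefore turned on 1 library.

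*Amhr2* (ENSMUSG00000023047, chromosome 15, from 102445367 to 102454630), the type II receptor of AMH, followed the same order of libraries. Its normalized counts were 1272, 1659 and 1194 in the Pa1F/F libraries, against 729, 862 and 2411 in those of Amh-pa1-/- cells. Again replicates 1 and 2 lay below and replicate 3 above all controls, an arrangement found in 3 of the 10 genes (*Amh*, *Amhr2* and *Fstl1*), as compared with 2.94% of tested genes, and with 3.33% of tested genes in the opposite arrangement, which none of the 10 showed. Replicate 3 was 3.03 times the mean of replicates 1 and 2, a ratio reached by 1.63% of tested genes. The log2 fold change was -0.04 (SE 0.44, edgeR, adjusted p = 0.950). Without Amh-pa1-/- replicate 3 it was -0.79 (edgeR, adjusted p = 0.00608).

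Markers of other cells differed between the same libraries. Of 6 peritubular myoid cell markers 5 were tested, and *Acta2* was higher in every Amh-pa1-/- library (2968 normalized counts on average in Pa1F/F and 13194 in Amh-pa1-/- cells). The other 5 genes of that list summed to 24.7, 19.7 and 227 CPM in Amh-pa1-/- replicates 1, 2 and 3, against 48.9 to 70.2 CPM in Pa1F/F libraries. *Myh11*, *Des* and *Actg2* of that list thus had the arrangement of *Amh* and *Amhr2*, with 216, 164 and 1605 normalized counts of *Myh11* in the Amh-pa1-/- libraries, and all 3 passed as lower when replicate 3 was left out (edgeR, adjusted p = 0.000484, 0.00275 and 0.00234). Summed markers of stromal fibroblasts (6 genes, 5 tested, 3 lower) were at 1249, 1237 and 2381 CPM in Amh-pa1-/- replicates 1, 2 and 3, and at 2077 to 2483 CPM in Pa1F/F libraries. *Col1a1* made up 53.4% of these counts in Pa1F/F cells. The other 5 genes summed to 492, 490 and 908 CPM in Amh-pa1-/- replicates 1, 2 and 3, against 1008 to 1083 CPM in Pa1F/F libraries. *Col1a1* passed, as lower, only without Amh-pa1-/- replicate 3 (edgeR, adjusted p = 0.00338). The call of *Col3a1* was lost in 5 and that of *Dpt* in 2 of the 6 fits without 1 library. Of 7 spermatogonial markers 2 were tested, and *Kit* was lower (22.5 and 5.79 normalized counts on average). *Uchl1* made up 99.0% of the counts of that list in Pa1F/F cells, and the other 6 genes summed to at most 2.56 CPM in any library. The part of these differences in the values of *Amh* and *Amhr2* was not tested, and in such bulk samples fewer cells of a type and less RNA per cell cannot be told apart.

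Among the activin antagonists, follistatin itself was expressed at a low level. *Fst* (ENSMUSG00000021765, chromosome 13, from 114452262 to 114458949) had 53.5, 39.7 and 39.9 normalized counts in the Pa1F/F libraries, against 16.6, 7.89 and 51.1 in those of Amh-pa1-/- cells. Replicates 1 and 2 were below every control library and replicate 3 was within their range, at 4.17 times the mean of replicates 1 and 2, which 0.784% of tested genes reached. Its log2 fold change was -0.80 (SE 0.58, edgeR, adjusted p = 0.323), and -1.82 without Amh-pa1-/- replicate 3 (edgeR, adjusted p = 0.00647). The lowest raw count was 7, so that counting error weighs more on *Fst* than on the subunit genes.

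*Fstl3* (ENSMUSG00000020325, chromosome 10, from 79777272 to 79782630) was the reverse case, with Amh-pa1-/- replicate 3 at 0.444 of the mean of replicates 1 and 2, a ratio as low as in 3.5% of tested genes. Its normalized counts were 1467, 1478 and 1487 in Pa1F/F replicates, an SD of 10.1, and 1291, 1454 and 609 in Amh-pa1-/- replicates. All knockout libraries were below all control libraries, yet their own spread (SD 448) left the log2 fold change at -0.40 (SE 0.29, edgeR, adjusted p = 0.316). Without replicate 3 it was -0.10 (edgeR, adjusted p = 0.223).

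*Fstl1* (ENSMUSG00000022816, chromosome 16, from 37776873 to 37836514), a secreted glycoprotein that is related to follistatin by sequence, had 6789, 8875 and 7342 normalized counts in the Pa1F/F libraries, against 5888, 5741 and 8921 in those of Amh-pa1-/- cells. Its log2 fold change was -0.16 (SE 0.19, edgeR, adjusted p = 0.542), and -0.40 without Amh-pa1-/- replicate 3 (edgeR, adjusted p = 0.0231).

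**Figure D3:**
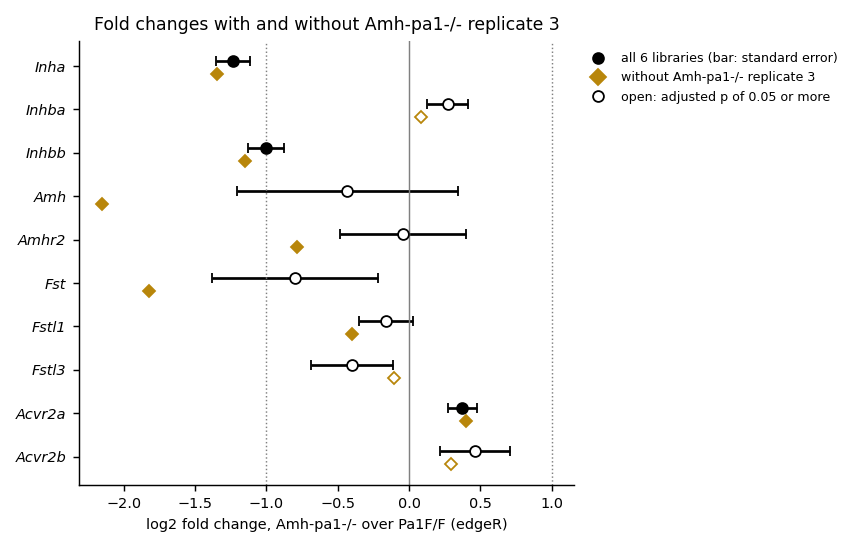
Log2 fold change of each gene in Amh-pa1-/- over Pa1F/F cells, from all 6 libraries (circles, with standard errors) and without Amh-pa1-/- replicate 3 (diamonds), where open symbols have an adjusted p-value of 0.05 or more and dotted lines mark a log2 fold change of -1 and 1. *Amh*, *Amhr2*, *Fst* and *Fstl1* pass the test in the fit without replicate 3 and not in the other, while *Inha*, *Inhbb* and *Acvr2a* pass in both fits.

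The activin type II receptor genes had far fewer counts than the subunit genes. *Acvr2a* (ENSMUSG00000052155, chromosome 2, from 48814109 to 48903269) had 410.5, 374 and 332 normalized counts in the Pa1F/F libraries, against 467, 517 and 465 in those of Amh-pa1-/- cells. All knockout libraries were above all control libraries, and the mean rose from 372 ± 39.0 to 483 ± 29.6 (SD, n = 3 each), a log2 difference of 0.37 (SE 0.10, edgeR, adjusted p = 0.0298). Leaving out Pa1F/F replicate 2 or 3 ended this call, and so did leaving out knockout replicate 1 or 2 (edgeR, adjusted p = 0.0649, 0.0905, 0.0639 and 0.0832), as did summing the closest replicates of each genotype (edgeR, adjusted p = 0.0976). The gene overlaps *Orc4* on the other strand (4332 counts over the 6 libraries), with which reads could be shared or lost, since the strand setting of the counting is not given in the sources used here. *Acvr2b* (ENSMUSG00000061393, chromosome 9, from 119402118 to 119434995) had 43.5, 44.5 and 29.4 normalized counts in the Pa1F/F libraries, against 47.8, 48.4 and 66.1 in those of Amh-pa1-/- cells, and its log2 fold change was 0.46 (SE 0.24, edgeR, adjusted p = 0.183).

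Levels of different genes were compared on a scale that divides by transcript length and library size (FPKM), for the 8 genes whose transcript in GENCODE M39 was not over 2% longer in span than the counted gene. In Pa1F/F cells *Fstl1* was highest at 133 ± 18.8 FPKM (SD, n = 3), higher than 97.6% of 12176 tested genes with a length. *Fstl3* (51.1 ± 0.349), *Amhr2* (47.2 ± 8.55), *Inhba* (38.0 ± 1.02) and *Inhbb* (33.7 ± 2.14) followed. The libraries of *Fstl3* and *Amhr2* overlapped, so that their order is not resolved, while those of *Amhr2* and *Inhba*, and of *Inhba* and *Inhbb*, did not overlap with the lengths used. *Amh* (8.40 ± 1.68), *Acvr2a* (4.17 ± 0.438) and *Fst* (1.60 ± 0.285) were below these in every Pa1F/F library, and *Fst* was higher than only 21.6% of tested genes. For *Inha* only a bound can be given. Its counted gene spans 3290 bases, so its level was at least 126 FPKM, above that of either β subunit. In Amh-pa1-/- cells *Inhbb* was at 16.8 ± 2.92 and *Inhba* at 45.8 ± 9.86 FPKM (SD, n = 3 each).

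**Figure D4:**
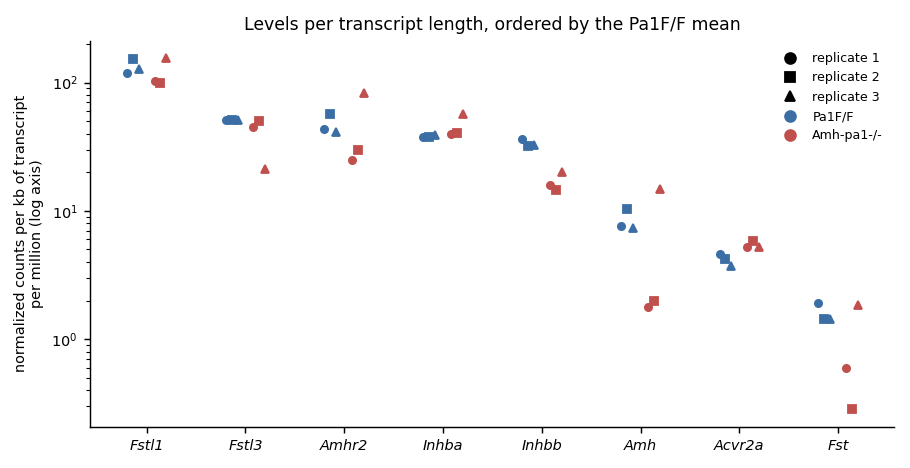
Normalized counts on the FPKM scale (log axis) in each library for the 8 genes with a usable transcript length, ordered by the Pa1F/F mean, with blue for Pa1F/F, red for Amh-pa1-/- and a marker per replicate. *Inhba* and *Inhbb* lie closer together in Pa1F/F than in Amh-pa1-/- libraries, and *Amh* spreads most among the Amh-pa1-/- replicates.

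Other genes of the pathway were taken from 4 lists, ligands and their processing enzymes, type I receptors and co-receptors, SMADs with their inhibitors, and SMAD-responsive genes, which hold 51 genes together. Of these, 38 were tested, 16 were lower and 6 were higher at an adjusted p-value under 0.05, which is 57.9% in either direction as compared with 35.3% of all tested genes, with 17.1% lower and 18.2% higher. The median log2 fold change was -0.32. The number passing depended on the libraries, with 12 of the 38 genes passing without Pa1F/F replicate 1, as compared with 22.7% of all genes tested in that fit, and 11 of the 22 calls were lost in at least 1 fit without 1 library.

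Among 8 tested ligands and processing genes, 4 were lower and 2 were higher. Activin precursors are cut by proprotein convertases. *Pcsk5* rose from 741 ± 58.6 to 2887 ± 461 normalized counts (SD, n = 3 each, log2 fold change 1.96, edgeR, adjusted p = 0.000182), and *Pcsk6* fell from 153 ± 28.0 to 21.7 ± 3.27 (SD, n = 3 each, -2.81, edgeR, adjusted p = 0.000279). *Furin*, the most abundant convertase of the list, had 4728 ± 213 and 4421 ± 368 (SD, n = 3 each, -0.10, edgeR, adjusted p = 0.360). *Gdf11*, an activin-like ligand of the same type II receptors, fell with a log2 fold change of -1.18 and *Fstl4*, a follistatin-like gene, with -2.65 (edgeR, adjusted p = 0.00279 and 0.00182). *Wfikkn2*, which binds GDF11 and myostatin, and *Pcsk7* were past the test with -0.98 and 0.43 but not in all fits without 1 library. *Inhbc*, *Inhbe* and *Mstn* were not analysed here.

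Of 8 tested type I receptors and co-receptors, 4 were lower and none was higher. Without Amh-pa1-/- replicate 3, *Acvrl1* passed as lower and *Bmpr2* as higher (log2 fold change -0.94 and 0.25, edgeR, adjusted p = 0.000581 and 0.0191). *Tgfbr3*, whose product betaglycan is the co-receptor that lets inhibin bind activin type II receptors, had 690.5, 761 and 768 normalized counts in the Pa1F/F libraries, against 169.8, 171 and 233 in those of Amh-pa1-/- cells (log2 fold change -1.95, edgeR, adjusted p = 0.000248). As for *Inha*, each knockout library lay below each control library. *Tgfbr3l*, a second inhibin co-receptor that is known from the pituitary, was at 20.0 ± 2.22 and 10.4 ± 1.83 (SD, n = 3 each, -0.94, edgeR, adjusted p = 0.0322) and did not pass in any fit without 1 library. *Bambi*, a pseudoreceptor that blocks signalling, was past the test with -0.56 (edgeR, adjusted p = 0.0171), but not without Pa1F/F replicate 1 or Amh-pa1-/- replicate 1. *Acvr1b*, the type I receptor of activin, had a log2 fold change of -0.50 (edgeR, adjusted p = 0.0712) and passed without Amh-pa1-/- replicate 3, and *Bmpr1a*, a type I receptor of AMH, of -0.03. *Acvr1*, a further type I receptor, was called lower with -0.36 (edgeR, adjusted p = 0.0407). That call was lost in 5 of the 6 fits without 1 library.

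Among 12 tested SMADs and inhibitors, 5 were lower and 1 was higher. *Smad3*, a mediator of activin signals, fell from 1477 ± 93.5 to 1018 ± 47.3 normalized counts (SD, n = 3 each, log2 fold change -0.54, edgeR, adjusted p = 0.00181). *Smad2*, *Smad4*, *Smad1* and *Smad5* had log2 fold changes of 0.19, 0.10, 0.01 and 0.06 and did not pass, though *Smad2* did without Amh-pa1-/- replicate 3. The inhibitory *Smad6* was past the test with -1.60 (edgeR, adjusted p = 0.0223), at a low mean of 40.6 ± 18.1 counts in Pa1F/F cells (SD, n = 3), and not when replicate 1 or 2 of either genotype was left out, while *Skil*, a repressor of SMAD targets, fell with -0.44 in every fit without 1 library.

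The SMAD-responsive genes went both ways, with 6 lower and 3 higher of 14 tested. *Ltbp1* (log2 fold change -1.45) and *Pmepa1* (-0.90) fell (edgeR, adjusted p = 0.00479 and 0.00440). *Junb* (1.29) and *Ccn2* (0.59) were past the test (edgeR, adjusted p = 0.0155 and 0.0212), but not without Pa1F/F replicate 1, nor was *Junb* without Pa1F/F replicate 3. *Id1*, *Id2* and *Id3*, targets of the SMADs that AMH and BMPs activate, had log2 fold changes of -0.55, -0.47 and -0.76 and passed only without Amh-pa1-/- replicate 3. *Smad6*, *Smad7*, *Bambi* and *Skil* stand in more than 1 of the lists.

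Known regulators of *Amh* and the inhibin genes formed a further list, of which 14 of 15 were tested, 4 were lower and 2 were higher (42.9%, as compared with 35.3% of all tested genes, 17.1% lower and 18.2% higher), with a median log2 fold change of 0.10. *Nr0b1* (DAX1), which represses SF-1, had 341, 212 and 406 normalized counts in the Pa1F/F libraries, against 13.7, 24.8 and 4.01 in those of Amh-pa1-/- cells (log2 fold change -4.51, edgeR, adjusted p = 0.00107). *Sox8*, which acts with *Sox9* on *Amh*, fell with -1.85, and *Gata4*, an activator of *Amh* and of the inhibin subunit genes, with -0.88 (edgeR, adjusted p = 0.00294 and 0.000325). *Nr5a1*, which encodes SF-1, fell with -0.41, and *Dmrt1* rose with 0.64 (edgeR, adjusted p = 0.00374 and 0.00766). With the close replicates summed, *Nr0b1* and *Gata4* still passed (edgeR, adjusted p = 0.0351 and 0.0241). *Sox8*, *Nr5a1* and *Dmrt1* did not pass in that fit (edgeR, adjusted p = 0.0573, 0.0734 and 0.0931), in which 8.66% of all genes passed. *Sox9* and the FSH receptor gene *Fshr* had log2 fold changes of -0.12 and 0.07 and did not pass, nor did *Wt1* (0.13), except without Amh-pa1-/- replicate 3.

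**Figure D5:**
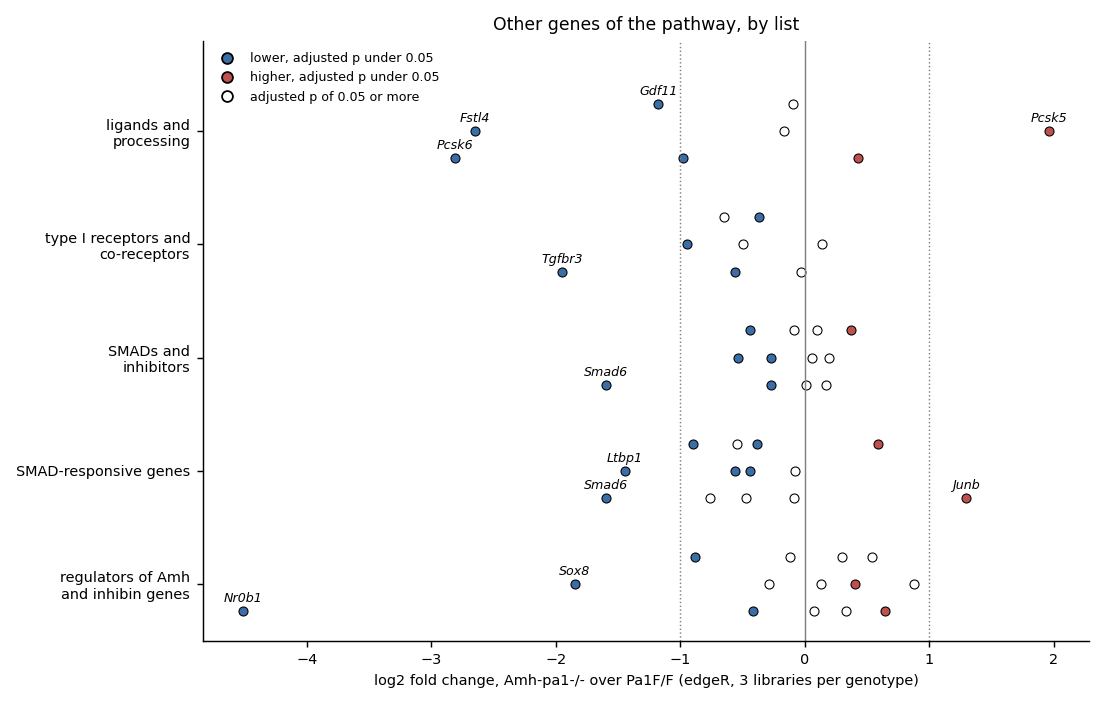
Log2 fold change in Amh-pa1-/- over Pa1F/F cells (edgeR, 3 libraries per genotype) of the tested genes of 5 lists, apart from 1 that is not reported here, with blue for lower, red for higher and open circles for genes with an adjusted p-value of 0.05 or more. Genes past a log2 fold change of 1 in either direction (dotted lines) are named, among them *Tgfbr3* at -1.95 and *Pcsk5* at 1.96.

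Markers of Leydig cells and macrophages moved with *Inha* and *Inhbb*. Of 7 Leydig cell markers 3 were tested and all 3 were lower (*Star*, *Cyp11a1* and *Hsd3b1*), with summed levels of 786 to 909 CPM in Pa1F/F and 163 to 295 CPM in Amh-pa1-/- libraries, while the defining markers *Insl3* and *Cyp17a1* averaged 0.927 and 1.97 normalized counts in Pa1F/F and 0 and 0.334 in Amh-pa1-/- cells. Of 8 macrophage markers 7 were tested and 5 were lower, at 125 to 136 CPM and 77.7 to 92.8 CPM. *Mrc1*, which did not pass, made up 51.6% of these counts in Pa1F/F cells. Without Amh-pa1-/- replicate 3 it passed as higher (log2 fold change 0.28, edgeR, adjusted p = 0.00813). The other 7 genes summed to 57.5 to 69.1 CPM in Pa1F/F and 10.2 to 12.7 CPM in Amh-pa1-/- libraries, with *Lyz2* at 456 and 47.4 normalized counts on average. Of 5 mesothelial markers all were tested and 3 were higher. *Upk3b* averaged 8.62 and 270.4 normalized counts, *Krt19* 1.58 and 55.5, and *Lrrn4* 19.6 and 77.9 in Pa1F/F and Amh-pa1-/- cells, while *Msln*, which did not pass, averaged 61.9 and 43.0. *Wt1*, which Sertoli cells also express, made up 98.2% of the mesothelial counts in Pa1F/F cells, and the other 4 genes summed to 4.43 to 7.39 CPM in Pa1F/F and 25.7 to 35.3 CPM in Amh-pa1-/- libraries. Of 5 endothelial markers 3 were tested and 2 were lower, at 115 to 120 CPM and 61.1 to 102 CPM. *Cdh5* made up 92.2% of these counts in Pa1F/F cells, and *Tie1* was not analysed here. *Pecam1*, *Kdr* and *Emcn* together summed to 6.56, 6.36 and 34.8 CPM in Amh-pa1-/- replicates 1, 2 and 3, against 6.78 to 11.99 CPM in Pa1F/F libraries. *Kdr*, which did not pass, had 485 normalized counts in Amh-pa1-/- replicate 3. The part of these cells in the lower *Inha* and *Inhbb* was not tested.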

How the data were processed

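RNA-seq counts of 3 Pa1F/F and 3 Amh-pa1-/- libraries were used. The authors aligned the reads with HISAT2 2.1.0 to GRCm38, counted reads per gene with HTSeq 0.6.0 and deposited the counts without normalization. The strand setting is not given in the sources used here. The table also holds the authors' mean, fold change and p-value columns, which were not used. Genes were filtered with edgeR's filterByExpr (minimum count 10, minimum total 15), which left 14919 of 28262, scaled by TMM and tested with the quasi-likelihood test of edgeR 4.0.16 in R 4.3.3, with genotype as the only term and Benjamini-Hochberg adjustment over all tested genes. The study's thresholds of 0.05 and a log2 fold change of 1 were used. The standard error is the absolute log2 fold change divided by the square root of F. The steps were also run on simulated counts with large planted changes and no outlying library. This checks the code and not the calls in these data. Ratios of subunit genes were compared after adding 0.5 to each count. The members and lists were chosen with earlier results of these data known. All members are named, and of each list the genes past both thresholds and the 2 largest changes past the adjusted p-value alone. One gene that meets this rule is counted in its list but not reported here. Others, such as *Furin*, *Acvr1*, *Acvr1b*, *Acvrl1*, *Bmpr2*, *Id1* to *Id3*, *Nr5a1* and the remaining SMADs and regulators, were chosen after their values were seen. Alternatives were other scalings, DESeq2 1.42.0, limma-voom (limma 3.58.1), other filters, the replicate number as a block, leaving out each library, and summing the closest replicates. Reads lack molecular identifiers, so counting error is understated.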

Additional observations from a re-analysis of the deposited data

How the results depend on the processing

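*Inha* and *Inhbb* were past the adjusted p-value of 0.05 in all 14 alternatives run for single genes. The number of the 10 genes past it was 2 to 7 with 1 library left out, and 7 was reached without Amh-pa1-/- replicate 3. The number also past a log2 fold change of 1 was 1 to 4 with 1 library left out, 1 with library size only, 1 with no filter beyond 1 count and 1 with the close replicates summed, since *Inhbb* then fell short of it (-0.99, -0.98 and -0.90). It was 0 in a test against that fold (edgeR's glmTreat, 1 of 10 at an unadjusted p under 0.05), which called 538 genes in all. The log2 fold change of *Amh*, -0.43 in edgeR, was -1.12 by limma-voom, -1.09 with the replicate block and -0.09 with the close replicates summed, and that of *Fst*, -0.80, was -1.16, -1.05 and -0.49. With 1 library left out, that of *Amh* was -2.16 to 0.012 and that of *Amhr2* -0.79 to 0.26. That of *Amh* turned to 0.012 and 0.0013 without Amh-pa1-/- replicate 1 and 2, and that of *Amhr2* to 0.11 without Pa1F/F replicate 2, to 0.26 and 0.21 without Amh-pa1-/- replicate 1 and 2, and to 0.16 with the close replicates summed. The cause was not tested. Of the pathway lists, 12 to 28 genes passed with 1 library left out, and 5 with the close replicates summed, which leaves 2 libraries per genotype and in which 8.66% of all genes passed. Same-numbered libraries did not deviate together (correlations of 0.11, -0.16 and -0.18), and no library correlated best with its own number. With the replicate number as a block, 2 of the 10 genes and 16 of the listed genes passed, as compared with 25.5% of all genes, and *Acvr2a* did not (edgeR, adjusted p = 0.0615). The exact paired p was 0.25 for each ratio (sign-flip permutation test). This is the smallest value that 3 pairs allow, so the paired test cannot tell the ratios apart. No ratio changed direction in any alternative. Counts as low as 7 limit *Fst*, and 28 *Acvr2b*.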
